A study of Homo sapiens with 3 samples.

Results

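Telomerase and shelterin are the enzyme that lengthens chromosome ends and the protein complex that covers them. Their genes were read here as 10 members, picked by name: TERT, TERC, DKC1 and NHP2 of telomerase, and TERF1, TERF2, TERF2IP, TINF2, POT1 and ACD of shelterin. The count files held 9 of the 10 under their gene symbols, in 17 transcript records. TERC stood in the files only as the RefSeq record NR_001566 without a gene name and was found by that accession. The table of the whole series held 22825 genes.

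The samples were 3 libraries of 1 group (n = 3): the line MDA-MB-231, derived from a human breast tumour of the triple-negative kind and carrying the p53 variant R280K, transfected with control siRNA. Per the labels, siRNA was given at 50 nM on 2 occasions 24 h apart, and cells were collected 48 h after the second. The other siRNA arm of the study is not analysed here, so the values describe the transfected line at baseline and the spread between its replicates, and no effect of a treatment was tested. The labels call the libraries biological replicates.

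Telomerase adds short DNA repeats to chromosome ends by reverse transcription. TERT is its catalytic protein and TERC the RNA that carries the template. Dyskerin (DKC1) and NHP2 bind the H/ACA end of TERC, and they serve many other H/ACA RNAs that guide modification of ribosomal RNA. Shelterin sits on the repeats: the proteins TRF1 (TERF1) and TRF2 (TERF2) bind the double-stranded part, POT1 binds the single-stranded end, TIN2 (TINF2) and TPP1 (ACD) bridge them, and RAP1 (TERF2IP) binds TRF2. Most somatic cells silence TERT, whereas most cancer cells express it.

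The template of TERC is shown first because it defines the repeat that all of these proteins serve. The stretch below lies at chr3:169764985-169765035 on the minus strand of GRCh38 and comes from the GENCODE 29 transcript, written as DNA. Capitals mark the 11-base template, which is complementary to the telomeric repeat, with 20 bases on each side.
TERC: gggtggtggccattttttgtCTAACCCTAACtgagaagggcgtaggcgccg

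Exons that separate the transcript records of TERT and NHP2 are shown next because the counts of those records differed. Capitals mark the exon, which is present in the first record of each gene and absent from the second, and the 15 lower-case bases on each side come from the neighbouring exons. The TERT exon lies at chr5:1264404-1264592 and the NHP2 exon at chr5:178150888-178150993, both on the minus strand of GRCh38.
TERT: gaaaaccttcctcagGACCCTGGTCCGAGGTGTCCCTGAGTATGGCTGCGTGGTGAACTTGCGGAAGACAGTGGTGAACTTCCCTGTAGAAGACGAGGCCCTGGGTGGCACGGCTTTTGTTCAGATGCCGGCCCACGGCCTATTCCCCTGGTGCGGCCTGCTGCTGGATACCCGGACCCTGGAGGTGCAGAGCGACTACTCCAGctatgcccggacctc
NHP2: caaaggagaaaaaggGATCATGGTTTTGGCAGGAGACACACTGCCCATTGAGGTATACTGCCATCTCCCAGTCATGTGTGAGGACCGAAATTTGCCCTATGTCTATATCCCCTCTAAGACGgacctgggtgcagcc

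Gene-level totals were 67493069 counts in replicate 1, 83425769 in replicate 2 and 53602830 in replicate 3. Levels are given in TPM, that is, counts divided by transcript length and scaled to the same sum in each library, so that genes of different length can be set side by side. They are means ± SD over the 3 libraries. The line's markers fitted its label, with VIM at 4679 ± 165 TPM among 5 of 5 mesenchymal and basal genes above the median gene, ESR1 and PGR at 0.0123 ± 0.00489 and 0.0617 ± 0.00152 TPM CDH1 at 0.621 ± 0.236 TPM and EPCAM at 18.1 TPM. Summed levels in replicates 1, 2 and 3 were 13.03, 14.99 and 16.8 TPM for 3 leukocyte markers (LYZ alone 14.4 TPM on average), 0.956, 1.15 and 1.34 TPM for 3 endothelial ones and 0.171, 0.383 and 0.331 TPM for 3 fibroblast ones, with DCN at 0 counts.

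Of the 10 genes, 8 lay above the median level of the 18506 genes with a count and a length, which was 9.07, 9.03 and 9.25 TPM in replicates 1, 2 and 3. Both exceptions were the parts that define telomerase, TERT and TERC. The protein subunits shared with other H/ACA particles were the most abundant, and the 6 shelterin genes fell between.

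TERT, the reverse transcriptase, was present at a low level in every library. It had 452, 609 and 404 counts in replicates 1, 2 and 3, which gave 4.03, 4.34 and 4.55 TPM and a mean of 4.31 ± 0.264 TPM. These values lay close together, and 41.3% of genes with a count were lower. The coefficient of variation between libraries was 5.67%, against 6.40% from counting alone if every read pair gave 2 counts.

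TERC, the RNA template, was close to the lower limit of what the libraries held. It had 7, 9 and 8 counts in replicates 1, 2 and 3, or 0.572, 0.589 and 0.827 TPM, with a mean of 0.663 ± 0.143 TPM. The number of read pairs was probably smaller still, since genes with exactly 2 counts (711, 642 and 586) outnumbered those with 1 (486, 404 and 387), as when both mates are counted. Its length was taken from a model of 438 bases. TERC has no poly(A) tail in its mature form, and the labels name the TruSeq RNA kits without saying how RNA was selected.

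Other short noncoding RNAs that lack such tails were also low. Of a list of 10, 6 were found, and all 6 lay below the median gene. The highest was RMRP, the RNA of RNase MRP, with 62, 78 and 34 counts and 7.46 ± 1.48 TPM, and RPPH1, the RNA of RNase P, was at 4.55 ± 0.769 TPM. The lowest was the vault RNA VTRNA1-1, with 1 count in replicate 2 and none in replicates 1 and 3. The level of TERC beside TERT therefore compares RNAs of different kinds, and the part of RNA selection in it was not tested.

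DKC1, the pseudouridine synthase that stabilises TERC, had the most counts of the 10 genes, 13531, 16123 and 10157 in replicates 1, 2 and 3. It stood at 188.0, 179 and 178.5 TPM, with a mean of 182 ± 5.31 TPM. NHP2, a small RNA-binding protein of the same particle, had 4638, 5864 and 3792 counts but, being shorter, stood at 192.0, 194 and 198.5 TPM, with a mean of 195 ± 3.33 TPM.

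The level of NHP2 was above that of DKC1 in each library, with a DKC1 to NHP2 ratio of 0.979, 0.923 and 0.899 in TPM. In CPM, counts scaled to library size without a length term, the ratio was 2.78 ± 0.123, so the order of these genes rests on length. That order also turned with counts summed over records, where DKC1 stood at 190.1 and NHP2 at 180.5 TPM. Transcripts of DKC1 exceeded those of TERT 42.4 ± 3.86 times in TPM, and those of NHP2 exceeded TERT 45.3 ± 2.10 times. In CPM these ratios were 27.2 ± 2.475 for DKC1 and 9.76 ± 0.452 for NHP2. The gap between TERT and its protein partners was much wider than the spread between libraries.

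**Figure D1:**
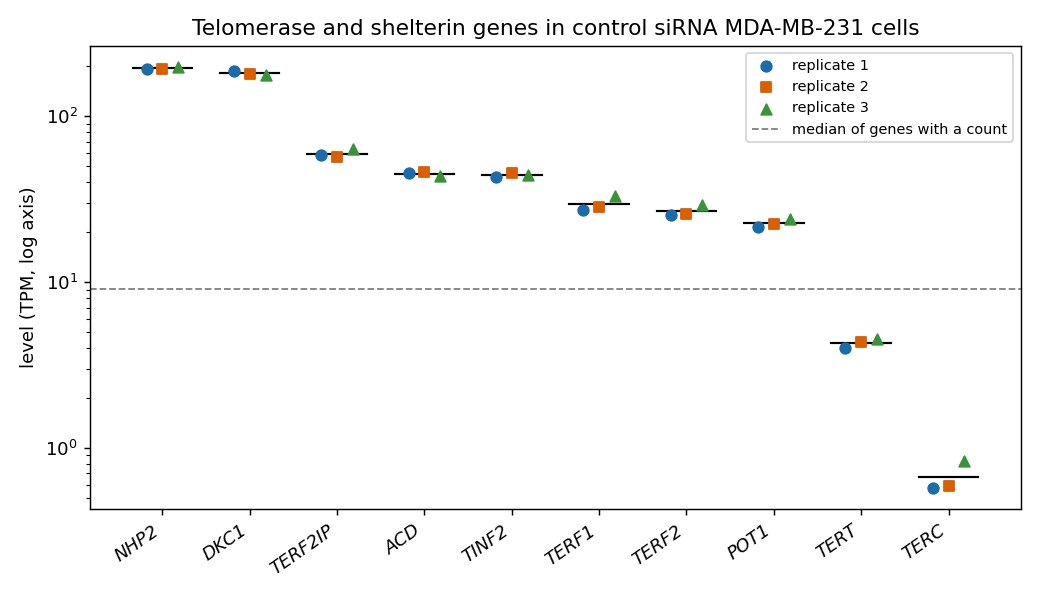
Level of each gene in TPM (log axis) in the 3 control siRNA libraries, with points for libraries, black bars for means over the 3 libraries and a dashed line at the median of genes with a count. NHP2 and DKC1 stand near 195 and 182 TPM, the 6 shelterin genes between 22.6 and 59.6 TPM, and TERT and TERC below the dashed line.

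All 6 shelterin genes were expressed within a narrow band, from 22.6 ± 1.38 TPM for POT1 to 59.6 ± 3.23 TPM for TERF2IP. Their levels summed to 221, 226 and 238 TPM in replicates 1, 2 and 3. TERF2IP made up 26.1 ± 0.663% of that sum, ACD 19.8 ± 1.19%, TINF2 19.5 ± 0.837%, TERF1 12.9 ± 0.847%, TERF2 11.7 ± 0.466% and POT1 9.92 ± 0.238%. These shares use the length of the transcript matched to each counted record. With the longest transcript of each gene, TERF1 was the lowest of the 6 at 17.1 TPM, and POT1 stood at 28.1 TPM.

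TERF1, which binds the double-stranded repeat, had 1276, 1662 and 1224 counts, or 27.3, 28.4 and 33.06 TPM in replicates 1, 2 and 3. TERF2, its paralog with the same kind of DNA-binding domain, had 2113, 2695 and 1923 counts, or 25.4, 25.9 and 29.2 TPM. Both were highest in replicate 3 and lowest in replicate 1, and their ranges overlapped. Means were 29.6 ± 3.08 TPM for TERF1 and 26.8 ± 2.08 TPM for TERF2.

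Which of the paralogs was higher depended on the length used for TERF1. The transcript matched to its counted record has 1677 bases and that of its other record 3268 bases, although the records held almost the same counts. The longer transcript has 1651 more bases at its 3' end, and the record matched to it held slightly fewer counts. Both lengths are those of GENCODE models. The lengths of the RefSeq records that were counted were not read and may differ from them. Which length belongs to the counted reads was not tested. The TERF1 to TERF2 ratio was 1.10 ± 0.0292 in TPM with the first length, 0.513 ± 0.0136 with the longest transcript of each gene (17.1 TPM for TERF1) and 0.619 ± 0.0164 in CPM.

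TERF2IP encodes RAP1, which is held at telomeres by TRF2. It had 3452, 4231 and 2960 counts, or 58.4, 57.2 and 63.3 TPM in replicates 1, 2 and 3. Replicate 3 was the highest, and TERF2IP exceeded TERF2 by 2.23 ± 0.0679 times in TPM. KARS, the gene of lysyl-tRNA synthetase on the opposite strand, shares 5.21% of the annotated exon bases of TERF2IP. KARS had 16567, 19835 and 12905 counts, and since no strand setting is stated, reads from that stretch cannot be told apart.

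The bridging subunits TINF2 and ACD overlapped in level with the lengths of their counted records. TINF2 had 2617, 3463 and 2119 counts, or 43.2, 45.7 and 44.3 TPM, and ACD had 2634, 3314 and 2003 counts, or 45.7, 46.0 and 43.9 TPM in replicates 1, 2 and 3. The TINF2 to ACD ratio was 0.983 ± 0.0324. Their order depended on the setting: TINF2 stood at 55.2 and ACD at 45.9 TPM with the longest transcript of each gene. With counts summed over records ACD stayed the higher, at 70.3 TPM against 43.9 for TINF2. ACD has more records than TINF2, and the records of a gene held most of the same counts, so that gap is no difference in level.

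POT1, which caps the single-stranded end, had 2438, 3191 and 2174 counts, or 21.4, 22.4 and 24.1 TPM. POT1 binds telomeres together with the TPP1 protein that ACD encodes, and the ACD to POT1 ratio was 2.002 ± 0.163 in TPM, 1.64 ± 0.133 with the longest transcript of each gene and 1.01 ± 0.0825 in CPM. The excess of ACD over POT1 in TPM thus came with the shorter ACD transcript, 2065 against 4080 bases.

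In order of level the genes ran NHP2, DKC1, TERF2IP, ACD, TINF2, TERF1, TERF2, POT1, TERT and TERC. Library values of neighbours in this order overlapped for ACD and TINF2 and for TERF1 and TERF2, and for no other neighbours. The lowest NHP2 value, 192.0 TPM, was only just above the highest DKC1 value, 188.0 TPM. The order is for TPM with the length of the transcript matched to the counted record. TERT and TERC stayed the lowest under each of the 8 alternatives tried.

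Several shelterin and H/ACA proteins share a name with other genes, which were measured beside them. TPP1, the gene of a lysosomal peptidase, stood at 55.8 ± 1.56 TPM and ACD, whose protein is also called TPP1, at 45.2 ± 1.10 TPM. The small GTPase genes RAP1A and RAP1B, unrelated to the telomere protein RAP1, stood at 30.5 ± 2.23 and 159 ± 7.15 TPM. NHP2L1, which encodes a spliceosomal and C/D snoRNA protein related to NHP2, stood at 185.5 ± 2.79 TPM.

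Transcript records of the same gene differed in count for TERT, NHP2, TINF2 and TERF1. A gene's records share most exons and held most of the same counts. The differences describe how counts fell on the records and are not isoform levels, since the counting tool and its treatment of shared reads are not stated.

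For TERT, the record NM_001193376 lacks the 189-base coding exon printed above, which is 63 codons long and touches residues 885 to 948 of the 1132-residue protein. It held 419, 568 and 381 counts in replicates 1, 2 and 3, against 452, 609 and 404 for the record with the exon, NM_198253. The shortfall was 33, 41 and 23 counts, or 6.58 ± 0.815%, and the exon makes up 4.70% of the transcript. The record with the exon was the higher in all 3 libraries, by few counts. The matched GENCODE transcripts also differ by 58 and 561 noncoding bases at their ends.

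For NHP2, the record NM_001034833 lacks the 106-base exon printed above, whose length is not a multiple of a codon, and encodes 90 residues in place of 153. It held 3619, 4416 and 2889 counts, against 4638, 5864 and 3792 for NM_017838. The shortfall was 23.5 ± 1.39%, and the exon makes up 12.3% of the transcript. The matched GENCODE transcripts also differ by 138 and 22 noncoding bases at their ends. NHP2 shares 27.4% of its annotated exon bases with RMND5B on the opposite strand, a gene with 1426, 1768 and 917 counts. With no strand setting stated, reads from the shared bases cannot be told apart.

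TINF2 has a record for a short TIN2 protein of 354 residues, NM_012461, and one for a long form of 451 residues, NM_001099274. The short-form record held more counts, 2617, 3463 and 2119 against 2344, 3074 and 1848. It carries 3 stretches of 327 bases in all that the other lacks, and the other record was 11.5 ± 1.199% lower. These stretches make up 15.1% of the short-form transcript.

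For TERF1, the record NM_003218 lacks a 60-base coding exon and encodes 419 residues in place of 439. It held 1253, 1642 and 1208 counts against 1276, 1662 and 1224, a shortfall of 1.44 ± 0.320%. That exon makes up 3.58% of the transcript matched to NM_017489, whose 3' end is 1651 bases shorter than that of the other. The smaller records of DKC1, ACD and POT1 held 95.2% or more of the counted record of their gene in each library. Of 3 POT1 records without a gene name, NR_003102 and NR_003104 held 7807 and 7805 counts in all, against 7803 for the counted record, NM_015450.

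**Figure D2:**
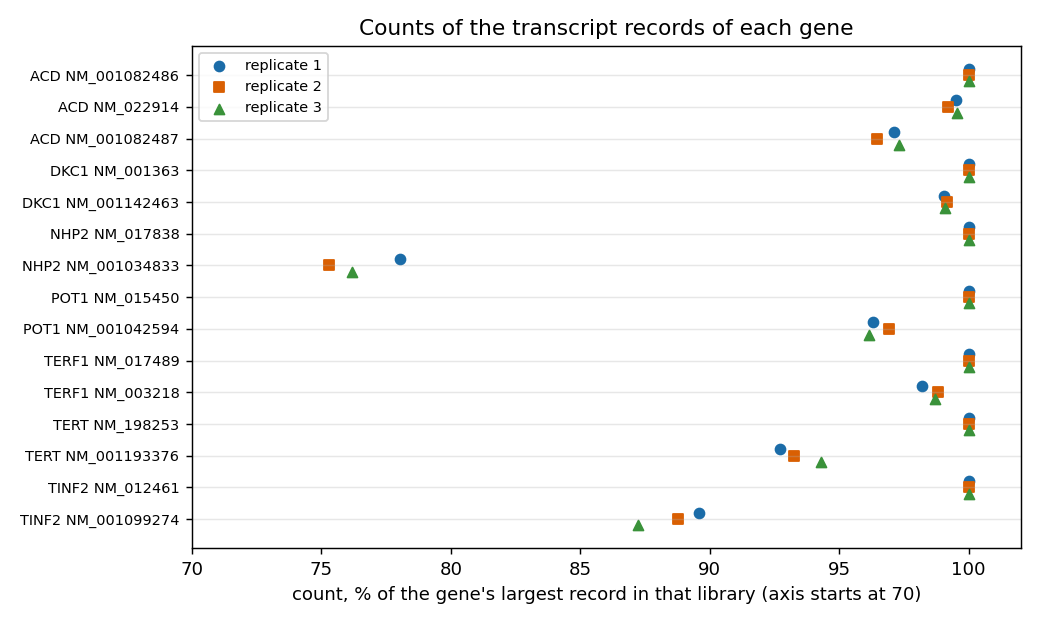
Count of each named transcript record as a percentage of the largest record of its gene in the same library (axis from 70), for the 7 genes with several named records; points are libraries. The NHP2 record without the 106-base exon stands at 75.3 to 78.03% and the long-form TINF2 record at 87.2 to 89.6%, while the TERF1 records are nearly level.

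The replicates were compared gene by gene with a test of variation beyond counting noise. It was fitted with edgeR on all 14440 genes that passed the count filter and adjusted over all of them by Benjamini-Hochberg. Every count was divided by 2 to stand for read pairs. That is approximate: in replicate 1, 486 genes had 1 count and 272 had 3, so not every pair gave 2 counts. Of the 10 genes, 9 passed the filter on low counts and TERC did not. Variation was called at an adjusted p under 0.05 for 3 of the 9, DKC1, TERF1 and TERF2, where 28.2% of all genes tested were called. With 9 genes tested, this is near the share of the background and is no result about telomere genes as a group.

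DKC1 varied the least of the 3 in size, with 201, 193.5 and 188.6 CPM in replicates 1, 2 and 3 and an adjusted p of 0.00906 by edgeR. Replicate 1 was the highest, and highest and lowest differed 1.07-fold. TERF1 had 18.97, 19.9 and 22.7 CPM, a 1.198-fold range, and an adjusted p of 0.0204. TERF2 had 31.4, 32.3 and 35.7 CPM, a 1.14-fold range, and an adjusted p of 0.0420. Both were highest in replicate 3, the library of fewest counts.

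The adjusted p by edgeR was 0.102 for POT1, 0.132 for TERF2IP, 0.298 for TINF2, 0.399 for ACD, 0.635 for TERT and 0.824 for NHP2. NHP2 had the smallest spread of the 10, 68.97, 70.4 and 70.4 CPM, or 1.18%. None of the 3 calls held without replicate 1, without replicate 3 or when a coefficient of variation of 5% between cultures was allowed, where 20.8%, 8.7% and 0.0485% of all genes tested were called. Without replicate 1 the adjusted p by edgeR was 0.354 for DKC1, 0.0641 for TERF1 and 0.0792 for TERF2, and without replicate 3 it was 0.125, 0.669 and 0.772. With counts not divided by 2, 6 of the 9 genes and 52.6% of all genes were called.

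Base composition differed widely among the 10 transcripts, from 37.6% GC in POT1 and 41.6% in TERF1 to 65.7% in TERT and 67.1% in TERC. Libraries differed along the same scale. In replicate 3 the median log2 deviation from the gene mean was 0.07 in the bin of genes lowest in GC and -0.09 in the highest, and in replicate 1 it was -0.05 and 0.06.

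TERF1 deviated by -0.11, -0.04 and 0.15 in replicates 1, 2 and 3, where the median of genes in its GC bin was -0.03, -0.02 and 0.05. With a GC term in the edgeR fit, the adjusted p of TERF1 was 0.282, between 9.43e-05 and 0.9997 over its 11 alternatives, and TERF1 was no longer called. That fit called 14.2% of all genes tested, DKC1 and TERF2 among them. POT1 deviated by -0.08, 0.00 and 0.08, close to its bin at -0.05, -0.02 and 0.07.

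TERF2, TERT, DKC1, NHP2 and TERF2IP did not follow their bins. NHP2 deviated by -0.02, 0.009 and 0.01, where its bin was at 0.031, 0.02 and -0.049. TERF2IP deviated by -0.027, -0.043 and 0.071, where its bin was at 0.004, 0.001 and -0.005. Neither was called with the GC term. TERF2 deviated by -0.07, -0.03 and 0.11, where its bin was at 0.00, 0.00 and -0.01, and its adjusted p with the GC term was 0.0476 by edgeR, between 0.000477 and 0.9997 over its 11 alternatives. TERT deviated by -0.09, 0.03 and 0.06, where its bin was at 0.06, 0.04 and -0.09. Its adjusted p by edgeR was 0.233 with the GC term, the lowest of its 11 alternatives. TERT was called under no setting, so its departure from the bin was not separated from counting noise. DKC1 deviated by 0.05, -0.01 and -0.04, where its bin was at 0.00, -0.01 and 0.01, and its adjusted p with the GC term was 0.00128, between 1.55e-05 and 0.9997 over its alternatives.

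**Figure D3:**
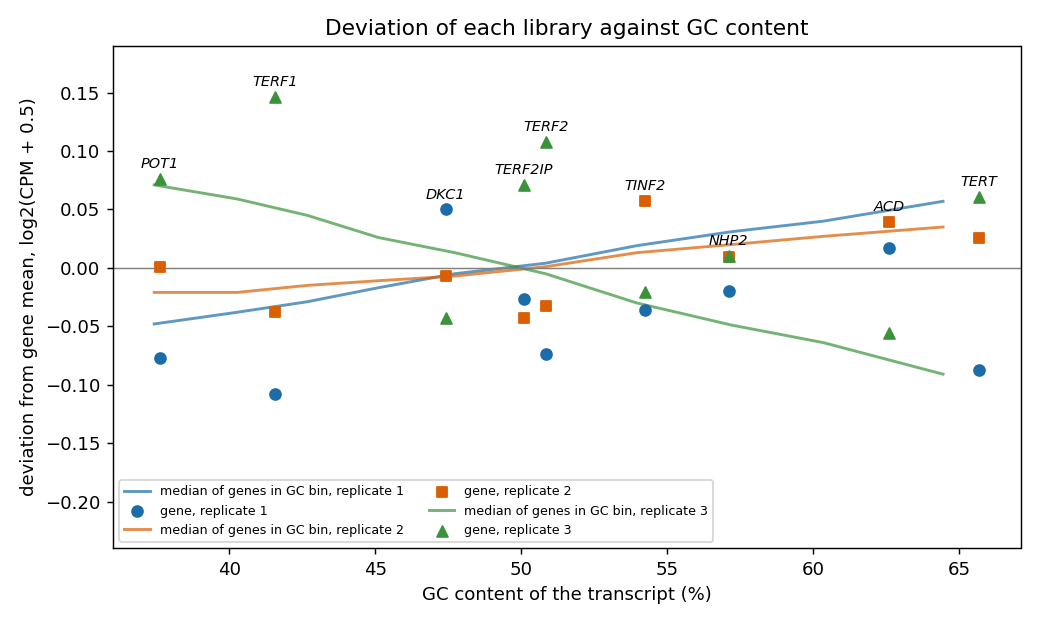
Deviation of each library from the gene mean, in log2(CPM + 0.5), against the GC content of the transcript in %, for 9 genes (points; TERC left out for its low counts) and for the medians of 10 bins of all tested genes (lines); colours mark replicates. The replicate 3 line falls from 0.07 to -0.09 as GC rises. In that replicate POT1 and TINF2 lie close to the line and DKC1 lies below it. TERF1, TERF2, TERF2IP, NHP2, ACD and TERT lie above it.

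Other genes of the telomerase pathway were read from a list of 12, and 11 of them lay above the median gene. NOP10 and GAR1, which complete the H/ACA particle with DKC1 and NHP2, stood at 158 ± 3.93 and 43.4 ± 2.35 TPM. The level of NOP10 was near that of DKC1 and NHP2, whereas GAR1 was far below all 3. PTGES3, the cochaperone p23, was the highest of the 12 at 436 ± 11.6 TPM and TEP1, a telomerase-associated protein, the lowest at 8.85 ± 0.276 TPM. Of the 12, 4 were called variable, WRAP53, RUVBL1, RUVBL2 and PTGES3, near the 28.2% called over all genes tested.

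Of 13 genes that replicate or process telomere ends, all lay above the median gene and 5 were called variable, where 28.2% of all genes tested were called. The Ku subunits led the list, with XRCC6 at 554.5 ± 9.45 TPM. The CST complex, which fills in the strand opposite the overhang, was uneven, with OBFC1 (STN1) at 107 ± 2.33 TPM, TEN1 at 27.8 ± 2.53 TPM and CTC1 at 12.07 ± 0.180 TPM. The helicase BLM was the lowest at 11.5 ± 0.723 TPM.

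Telomere chromatin was represented by 7 genes, 6 of them above the median gene and 4 called variable, against 28.2% of all genes tested; with 7 genes nothing is read from that count. ATRX and DAXX, whose loss accompanies telomere maintenance without telomerase in some tumours, were both present, at 38.4 ± 4.10 and 20.8 ± 0.788 TPM. ATRX stood at 37.0, 35.1 and 43.0 TPM in replicates 1, 2 and 3, highest in replicate 3, with an adjusted p of 1.77e-20 by edgeR. That test allows for counting noise only, and the range in CPM was 1.198-fold. ATRX has 36.85% GC and deviated by -0.045, -0.107 and 0.152, where its GC bin was at -0.048, -0.021 and 0.071. The part of GC in its spread is not given here. The histone chaperone genes ASF1B and ASF1A stood at 184 ± 7.18 and 26.9 ± 3.26 TPM, the DNA annealing helicase gene SMARCAL1 at 19.9 ± 1.43 TPM, and the telomere-binding genes ZBTB48 and HMBOX1 at 13.2 ± 0.740 and 7.84 ± 0.2996 TPM. HMBOX1 was the one below the median gene.

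Known regulators of the TERT promoter were mostly well above TERT itself. Of 7, 6 lay above the median gene and 3 were called variable, SP1, E2F1 and MEN1, again beside 28.2% of all genes tested. SP1 stood at 104 ± 4.84, E2F1 at 71.7 ± 3.94, MYC at 62.4 ± 1.73, the repressor MEN1 at 35.9 ± 2.02, and the ETS factor subunits GABPB1 and GABPA at 22.65 ± 0.953 and 19.2 ± 1.31 TPM. WT1 was the lowest, at 1.01 ± 0.233 TPM.

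Promoter sequence was available in the RefSeq table (GRCh38.p14, 250 bases before to 50 after the start) for 7 of the 10 genes. All 7 held GGGCGG on either strand, the core of the site of SP1, as did 44.6% of 27305 promoters, and none held TATAAA, found in 11.95%. CACGTG, the E-box bound by MYC with MAX, was found in TERT alone of the 7 and in 7.435% of all promoters. The palindromic NRF1 motif was found in DKC1 alone and in 1.36% of all. CCAAT was found in NHP2 and TINF2 and in 35.7% of all, and the ETS core CCGGAAG in TINF2 and TERF2IP and in 10.7%. These are matches in the reference genome. Promoter variants of the line itself were not read, so a motif absent here, such as the ETS core in TERT, may be present in the line. GC content ranged from 60.3% in POT1 to 77.3% in TERT, against a median of 58.3% over all promoters.

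**Figure D4:**
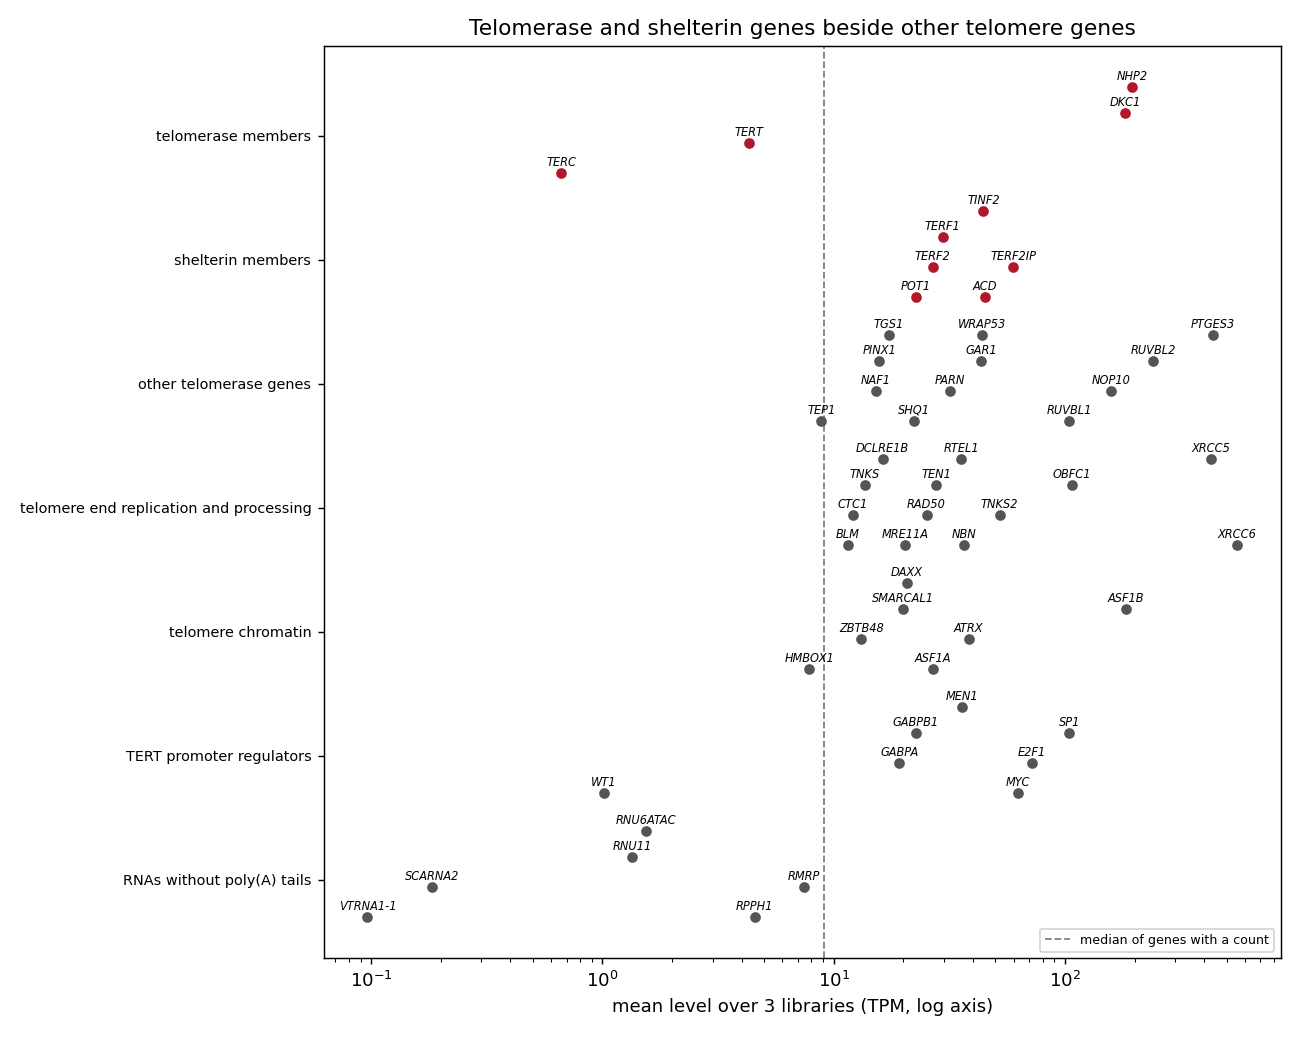
Mean level over the 3 libraries in TPM (log axis) of the 10 telomerase and shelterin genes (red) and of 5 lists of related genes (grey), with a dashed line at the median of genes with a count; heights within a list only separate labels. TERT and TERC lie left of the line, as do the RNAs without poly(A) tails, WT1, TEP1 and HMBOX1. The shelterin genes lie right of it, among the other telomere genes.

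Among reference genes, TBP, the TATA-binding protein gene, stood at 21.6 ± 1.99 TPM, near POT1 and below the other shelterin genes. SDHA, at 198 ± 5.34 TPM, was near NHP2 and DKC1. GUSB, POLR2A and HPRT1 lay between, at 96.3 ± 1.59, 88.2 ± 4.75 and 72.2 ± 5.38 TPM. Of these 5 reference genes, all but GUSB were called variable, beside the same 28.2%.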

How the data were processed

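The authors deposited raw counts per RefSeq transcript record, whole numbers without normalization, 1 library per file and 42269 records each. The submitters' processing notes name FastQC, TopHat2, Cufflinks and hg19; versions, the counting tool, strand setting and handling of multiple hits are not given in the sources used here. A gene's count was its record with the largest total. Of 6937 unnamed records, 619 matched no gene; they held 0.952%, 0.9595% and 0.944% of record counts.

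TPM used the length of the GENCODE 29 transcript paired with the record, or the longest of the gene, for 98.8% of genes with a count. Sequences came from GENCODE 29 and RefSeq.

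Variation between libraries was tested with edgeR 4.0.16 (R 4.3.3): a Poisson fit with TMM scaling and a single mean per gene, its deviance divided by 2 for paired mates and referred to a chi-square on 2 df, with Benjamini-Hochberg adjustment over genes kept by filterByExpr. DESeq2 1.42.0 gave alternative size factors. CPM used TMM; log values added 0.5. Python 3.11.15 made tables and plots. Counting precision covers counting error only. The genes, lists and tests were chosen with earlier results of these data known. All genes of the lists with 7 or fewer members and the highest and lowest of longer ones are named; NOP10, GAR1, the CST genes and genes called variable were added after their values were seen. Some genes of the lists are not reported here.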

Additional observations from a re-analysis of the deposited data

How the results depend on the processing

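The number of the 10 genes called variable, 3 beside 28.2% of all genes tested, was 6 with counts not divided by 2 (52.6%). It was 0 with a coefficient of variation of 0.05 allowed (0.0485%). Without replicates 1, 2 and 3 in turn it was 0, 3 and 0, beside 20.8%, 21.2% and 8.7% of all genes. It was 3 with DESeq2 size factors, library totals or counts summed over copies, where 28%, 28.6% and 28.4% of all genes were called. With no count filter all 10 genes were tested and 3 called, beside 21.1% of 18740 genes. It was 4 with counts summed over records (where 40.8% of all genes were called) and 2 with a GC term (14.2%). Over all genes tested the number called, 4065, was 7602 with counts not divided by 2 and 2055 with a GC term. It was 7 with a coefficient of variation of 0.05 allowed and 1281 without replicate 3. The number above the median gene, 8, was 7 against genes at 1 CPM or more in each library and 8 under the 7 other alternatives. Of the 10 places in the order of levels, 4 were kept in CPM, 5 with the longest transcript and 3 with counts summed over records; leaving out each replicate kept 8 to 10. TERC rested on 24 counts in all. No paired analysis was possible because there is 1 group. The causes of these changes were not tested.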
